A study of Mus musculus with 6 samples.

Results

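Transcripts of 10 transcription factors were followed through the cells of the mouse aortic root and ascending aorta: 4 CCAAT/enhancer-binding proteins (Cebpa, Cebpb, Cebpd and Cebpg) and 6 Krüppel-like factors (Klf2, Klf4, Klf5, Klf6, Klf9 and Klf15). They were chosen by symbol, and each matched 1 of the 31055 features in the count matrix. Single-cell libraries had been prepared from 6 female mice of 16 weeks, 1 library per mouse, all on a 129 background. By their labels 2 control mice were Tgfbr1+/+, 2 control mice were Tgfbr1+/+; Wnt2CRE; EGFP-L10a, and 2 mice with Loeys-Dietz syndrome (LDS), a hereditary aneurysm disorder, were Tgfbr1M318R/+. In the second genotype a Cre recombinase under a Wnt2 promoter switches on the EGFP-L10a tracer in the cardiac neural crest lineage. The numbers 1 to 6 at the end of the cell barcodes separate the libraries, but the sources used here pair no number with a mouse. Genotypes were therefore not compared. Cell classes, subtypes and bins were compared within each library as descriptions, and no p-value was computed. Values are given for library 1 to library 6 or as median and range over them, and a gene was called when its ratio had 1 sign in every library.

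C/EBP proteins bind DNA as dimers through a basic leucine zipper. Cebpa acts in myeloid and fat cells, Cebpb and Cebpd are induced early by inflammatory cytokines and glucocorticoids, and Cebpg pairs with the other members. Krüppel-like factors bind GC-rich and CACCC sequences through zinc fingers. Klf2 and Klf4 respond to blood flow in endothelial cells, Klf4 and Klf5 are known for their part in the switch of smooth muscle cells away from the contractile state, and Klf9 and Klf15 are glucocorticoid targets. Several of these genes are also immediate early genes, like the AP-1 genes Fos, Jun and Junb, and such genes are known to be induced while tissue is digested with enzymes. The aortas had been digested for different times by the protocol and the time of each library is not given in the sources used here.

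After filtering, 24972 of 30716 barcodes were kept, between 1863 and 6395 per library, with library totals of 18218282 to 38105145 unique molecular identifiers (UMIs) and medians of 5572 to 9838 UMIs per cell. Clustering without the 10 genes gave 10407 vascular smooth muscle cell (VSMC)-like, 13371 fibroblast-like, 569 endothelial-like and 548 leukocyte-like cells. Classes were named by their markers, so sums of these markers describe the classes and do not test the names. The 7 VSMC markers summed to 64703 CPM (UMIs of a gene per 1000000 UMIs of the group) in VSMC-like cells. In the other 3 classes they summed to 2138 to 3029 CPM. Transcripts of other classes were present in each class. The 7 fibroblast markers summed to 5.41% of their own level in VSMC-like, 10.5% in endothelial-like and 4.83% in leukocyte-like cells, and the 8 leukocyte markers to 0.0447% in VSMC-like cells. Over the libraries the fibroblast markers ranged from 1012 to 7155 CPM in endothelial-like cells, against 26370 CPM in all fibroblast-like cells. The part of fibroblast transcripts in the endothelial-like values below was not tested. Endothelial-like cells numbered only 10 in library 6, and in library 2, where doublets were marked by the top 5% of scores because the caller had marked under 0.5% of cells, 40.0% of its 35 endothelial-like cells were marked. Of 24896 distinct barcode sequences in the kept cells 76 occurred in more than 1 library, and leaving them out changed no call for the 10 genes between classes, subtypes or bins. It was not run for the finer subclusters.

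The stretches directly upstream of 5 members are shown because these members lie at both ends of the results below: Klf4, Klf2 and Cebpb were, with Cebpd, the 4 that moved most with the level of the immediate early genes, and Klf9 and Klf15 moved little in VSMC-like cells. They are the 250 bases before the RefSeq start on GRCm38.p6, written 5′ to 3′ on the strand of the gene. Capitals mark TGACG, the core of the cAMP response element through which CREB-type factors act. They also mark TGANTCA, a loose form of the AP-1 site with any base at N. Each was read on either strand (CGTCA is TGACG on the other strand). Klf4 lies at chr4:55532476-55532725 on the minus strand, Klf2 at chr8:72318812-72319061, Cebpb at chr2:167688665-167688914, Klf9 at chr19:23140976-23141225 and Klf15 at chr6:90462326-90462575, these 4 on the plus strand.
Klf4: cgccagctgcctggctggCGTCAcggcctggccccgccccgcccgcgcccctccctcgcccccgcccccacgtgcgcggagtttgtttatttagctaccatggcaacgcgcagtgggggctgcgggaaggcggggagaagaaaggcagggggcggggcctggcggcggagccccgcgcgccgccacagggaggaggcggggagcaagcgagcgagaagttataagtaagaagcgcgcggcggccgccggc
Klf2: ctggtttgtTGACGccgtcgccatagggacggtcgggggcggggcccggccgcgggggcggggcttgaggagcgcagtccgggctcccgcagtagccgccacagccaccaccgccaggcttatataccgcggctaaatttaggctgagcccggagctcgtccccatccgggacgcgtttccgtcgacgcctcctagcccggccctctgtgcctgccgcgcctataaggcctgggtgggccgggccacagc
Cebpb: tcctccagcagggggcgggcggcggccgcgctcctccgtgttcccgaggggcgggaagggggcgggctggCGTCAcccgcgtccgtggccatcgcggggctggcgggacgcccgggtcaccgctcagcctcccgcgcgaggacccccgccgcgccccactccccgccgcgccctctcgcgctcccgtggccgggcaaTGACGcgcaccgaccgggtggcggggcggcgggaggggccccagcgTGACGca
Klf9: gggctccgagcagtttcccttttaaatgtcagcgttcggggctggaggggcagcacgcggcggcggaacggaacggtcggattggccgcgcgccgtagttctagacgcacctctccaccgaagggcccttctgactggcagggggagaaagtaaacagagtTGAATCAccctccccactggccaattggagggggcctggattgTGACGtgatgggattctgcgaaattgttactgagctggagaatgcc
Klf15: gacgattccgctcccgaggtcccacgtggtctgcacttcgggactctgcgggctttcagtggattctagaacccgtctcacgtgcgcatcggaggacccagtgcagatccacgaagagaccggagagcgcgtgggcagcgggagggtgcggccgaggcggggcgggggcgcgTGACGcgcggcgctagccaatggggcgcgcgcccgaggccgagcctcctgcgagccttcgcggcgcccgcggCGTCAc

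RefSeq windows from 250 bases before to 50 bases after the start were found for 8 of the 10 members, all but Cebpd and Klf5. TGACG occurred in 5 of the 8, against 20.8% of all 32851 promoter windows: at -180, -53 and -7 in Cebpb, -78 and -6 in Klf15, -241 in Klf2, -232 in Klf4 and -46 in Klf9. The full element TGACGTCA, found in 1.79% of windows, occurred in none. The loose AP-1 letters TGANTCA were found in 7.81% of windows and in 1 member, Klf9, at -89. The base at N was A there, so the stricter AP-1 site, with C or G at N, was in none of the 8. Its share of all windows was not counted. The C/EBP letters TTGCNNAA (10.8% of windows) and the CArG box bound by serum response factor (1.63%) were in none of the 8. GGGCGG, the GC box, was in 6 of 8 against 35.7%, and CACCC, the letters that Krüppel-like factors bind, in 5 of 8 against 57.5%. The windows of the 8 members were richer in G and C, at 63.0% to 80.7%, than all windows, whose median was 52.7%, and the shares of all windows are not matched for this. TATAAA (13.6%) stood at -30 in Cebpa and at 21 in Cebpb. Members at both ends of the results carried TGACG, and a match of letters is a description and not evidence of binding.

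Cell classes were compared first, to show where each factor was transcribed. Summed over all libraries, 8 of the 10 members reached 10 CPM in VSMC-like cells, 9 in fibroblast-like cells and 8 in each of the other classes. Klf5, known from smooth muscle proliferation, did not reach 10 CPM in any class: its medians were 1.48 CPM in VSMC-like, 5.16 in fibroblast-like, 1.17 in endothelial-like and 0.636 in leukocyte-like cells, the last from 15 UMIs in all.

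Of the C/EBP genes, Cebpa (chr7:35119293-35121928 in GENCODE M21 for mm10, plus strand), the myeloid and fat cell factor, was highest in leukocyte-like cells of every library. It had 89.7, 130.2, 103, 64.2, 58.9 and 79.9 CPM in the leukocyte-like cells of library 1 to library 6, 11.0 to 22.2 CPM in fibroblast-like cells and 0.744 to 2.12 CPM, 97 UMIs in all, in VSMC-like cells. The leukocyte-like and fibroblast-like ranges did not overlap. After thinning every cell to 3000 UMIs, 16.9% of leukocyte-like cells (95% exact interval 13.6 to 20.7) and 0.346% of VSMC-like cells had a Cebpa UMI, against 30.7% and 0.788% before thinning. Thinning kept 449 of the 548 leukocyte-like and 9833 of the 10407 VSMC-like cells, whose medians were 5177 and 7199 UMIs before it.

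Cebpb (chr2:167688915-167690418, plus strand, a single exon), which is induced in inflammation, was detected in all classes. VSMC-like cells had 501, 227, 626, 696, 1184 and 530.05 CPM from library 1 to library 6, lowest in library 2 and highest in library 5. Leukocyte-like cells were highest in every library, with a median of 1202 CPM (503 to 2111), followed by fibroblast-like cells at 782 (379 to 1035), VSMC-like cells at 578 and endothelial-like cells at 317 (158 to 654). The ranges of all neighbours in this order overlapped.

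Cebpd (chr16:15887286-15891031, plus strand, with Spidr on the opposite strand), the other early C/EBP gene, was higher in fibroblast-like cells, with 918, 677, 1243, 1452, 1266 and 864 CPM, than in VSMC-like cells, with 183, 129, 331, 433, 499 and 409 CPM. The lowest fibroblast-like value lay above the highest VSMC-like value. Endothelial-like cells had a median of 841 CPM (509 to 1022), overlapping fibroblast-like cells, and leukocyte-like cells 304 (231 to 541), overlapping VSMC-like cells. Cebpg (chr7:35046422-35056573, minus strand), the dimer partner, was the most even member among libraries of VSMC-like cells at 27.8 to 29.9 CPM. It was 40.0 to 54.7 CPM in fibroblast-like, 35.8 to 97.7 in leukocyte-like and 38.3 to 95.8 in endothelial-like cells, all above every VSMC-like value. Transcripts Gm44836 and Gm45094 overlap Cebpg on its strand, and Gm45091, Tmem189 and Gm45095 lie opposite Cebpa, Cebpb and Cebpg. Whether the counting used strand is not given in the sources used here, so reads of such pairs may not be told apart.

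Of the KLF genes, Klf2 (chr8:72319033-72321656, plus strand), the flow-responsive factor, was highest in endothelial-like cells of every library. Endothelial-like cells had 2154, 1299, 1687, 1537, 2040.0 and 1789 CPM, above the range of leukocyte-like cells (496 to 757), fibroblast-like cells (306 to 674) and VSMC-like cells (127 to 495). Klf4 (chr4:55527143-55532466, minus strand) separated VSMC-like cells from the rest. VSMC-like cells had 75.9, 72.8, 174, 156, 184 and 96.9 CPM, lower than any value of the other classes, which lay at 489 to 1013 in fibroblast-like, 845 to 1193 in endothelial-like and 415 to 944 CPM in leukocyte-like cells and overlapped each other.

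Klf6 (chr13:5861482-5870394, plus strand), an early gene of tissue injury, had medians of 658 CPM (484 to 947) in leukocyte-like, 474 (247 to 576) in endothelial-like, 264 (168 to 307) in VSMC-like and 181 (135 to 292) in fibroblast-like cells, and neighbouring ranges overlapped. Klf9 (chr19:23141226-23168134, plus strand), a glucocorticoid and thyroid hormone target, overlapped between VSMC-like (202 to 247 CPM), fibroblast-like (170 to 266) and endothelial-like cells (159 to 265) and lay below them in leukocyte-like cells (17.8 to 111). Klf15 (chr6:90462576-90475238, plus strand), a glucocorticoid target known from heart and muscle metabolism, was the only one of the 10 with its highest median in VSMC-like cells. VSMC-like cells had 30.9, 28.3, 36.6, 48.4, 54.0 and 38.8 CPM and fibroblast-like cells 12.3, 10.1, 16.6, 15.5, 15.7 and 20.7 CPM, with no overlap. Endothelial-like and leukocyte-like cells held 8 and 11 Klf15 UMIs in all. After thinning, 12.3% of VSMC-like cells (11.6 to 12.9) had a Klf15 UMI and 0.891% of leukocyte-like cells (0.243 to 2.27), against 26.6% and 1.82% before thinning.

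Against VSMC-like cells, fibroblast-like cells were higher in every library for 5 of the 9 members tested, as were 37.9% of all genes tested, and lower for 2, as were 34.9% of genes. The 5 were Cebpa (median log2 ratio 3.89, 2.73 to 4.67), Klf4 (2.50, 2.17 to 3.34), Cebpd (1.83, 1.08 to 2.39), Cebpg (0.66, 0.43 to 0.97) and Klf2 (0.62, 0.32 to 1.85). Klf6 was lower at -0.39 (-0.87 to -0.07) and Klf15 at -1.40 (-1.78 to -0.91). Cebpb, at 0.48, was higher in 4 of 6 libraries. Endothelial-like cells were higher in every library for 5 of 9 members (Klf4 2.93, Klf2 2.84, Cebpg 1.49, Cebpd 1.14 and Klf6 0.75), beside 24.9% of all genes. They were lower for 2, Cebpb at -0.94 and Klf15, beside 18.7% of genes. Leukocyte-like cells were higher for 6 of 9 members (Cebpa 6.29, Klf4 2.36, Klf6 1.58, Klf2 1.43, Cebpb 1.10 and Cebpg 0.82), beside 27.2% of all genes, and lower for Klf9 (-1.73) and Klf15, beside 34.6%. The 3 comparisons share the VSMC-like cells. A gene was tested when it reached 10 CPM in either class. Cebpa was below this in VSMC-like cells and was tested only through the other class, which favours a higher sign. Klf15 was below it in endothelial-like and leukocyte-like cells and was tested there only through VSMC-like cells, which favours a lower sign.

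**Figure D1:**
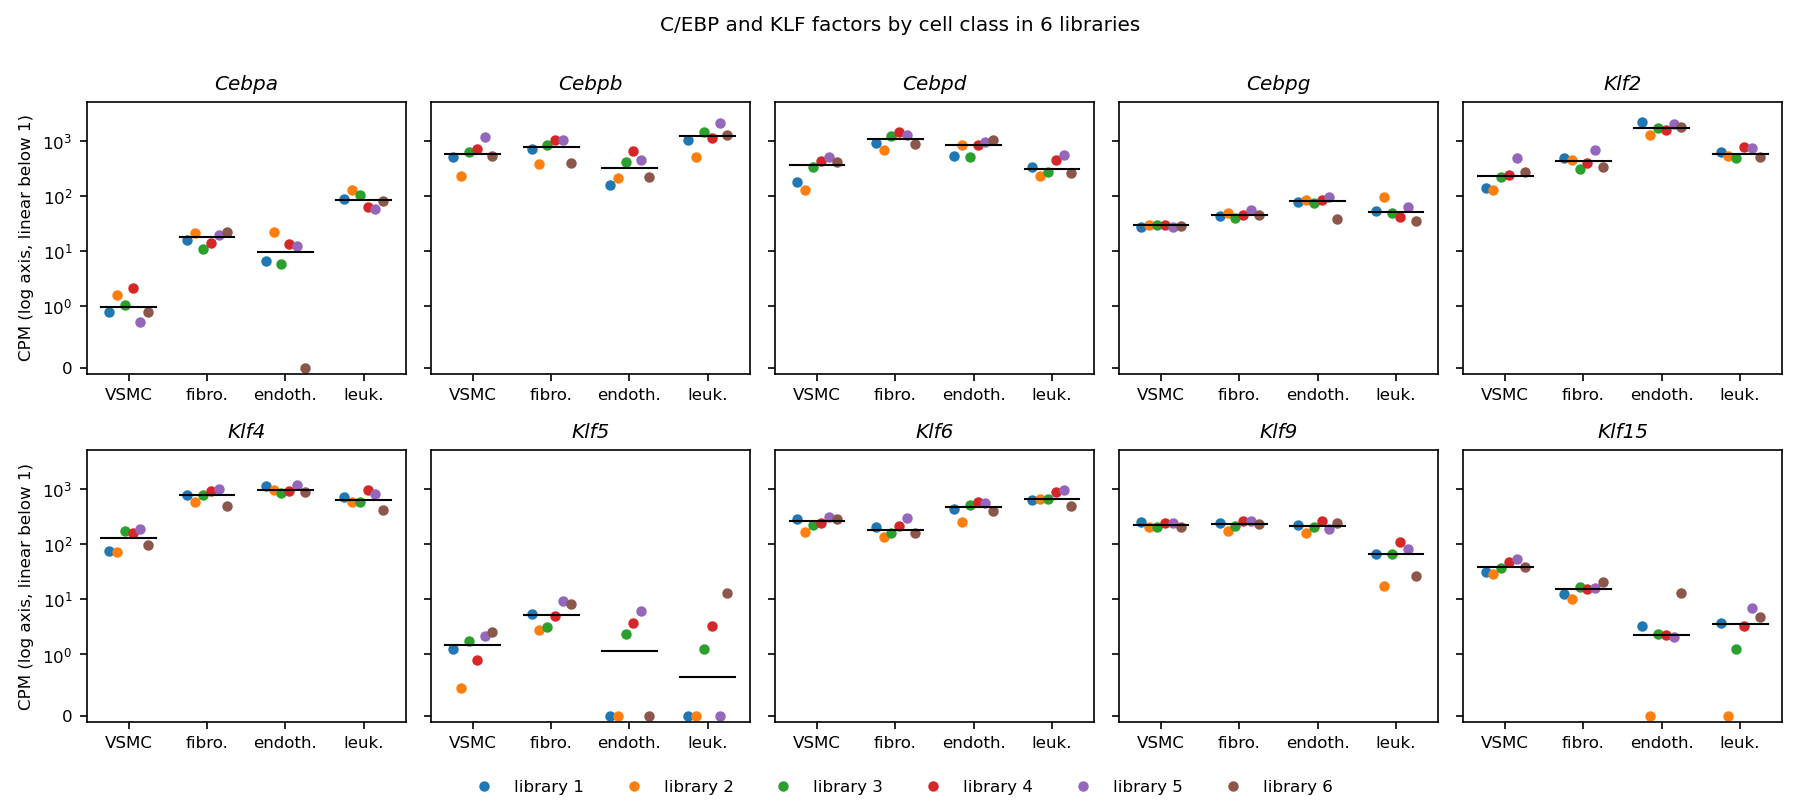
CPM (log axis that is linear below 1) of the 10 members in VSMC-like, fibroblast-like, endothelial-like and leukocyte-like cells. Each point is 1 library and each bar the median of 6; Klf2 stands highest in endothelial-like cells, Cebpa in leukocyte-like cells and Klf15 in VSMC-like cells, and Klf4 is lowest in VSMC-like cells.

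The share of Fos, Jun and Junb in the summed UMIs also differed between the classes, at a median of 0.595% (0.383 to 1.18) in VSMC-like and 0.982% (0.728 to 1.27) in fibroblast-like cells. VSMC-like cells were therefore weighted in each library to the distribution of this share in fibroblast-like cells. Of the 9 members 4 were then higher in every library, beside 37.5% of all genes: Cebpa (3.32), Klf4 (2.12), Cebpd (1.48) and Cebpg (0.59). Klf2, at 0.39, was higher in 5 of 6 libraries, all but library 6. Klf6 (-0.57) and Klf15 (-1.37) were lower in every library, beside 32.3% of genes. Cebpb was at -0.01, with 3 libraries on either side. Cebpa was again tested only through fibroblast-like cells.

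Among VSMC-like cells, 7917 were VSMC1-like and 1846 VSMC2-like, names taken from the study's subtypes and given by the markers Notch3 and Enpep, higher in VSMC2-like cells, and Ptprz1 and Tes, lower there. The study relates VSMC1 to the ascending aorta and VSMC2 to the root, and the comparison asks which of the 10 factors differ between them. VSMC2-like cells had more transcripts of fibroblast markers, 2966 CPM summed over 7 markers (820 to 5440) against 994 (710 to 1318), with all but Col1a1 higher in every library, and 8.50% of them were marked as doublets against 1.30%. Their Fos, Jun and Junb share was higher too, at 0.937% (0.590 to 1.52) against 0.498% (0.328 to 1.11). Results without cells holding fibroblast marker UMIs, without marked doublets, or with this share weighted are given below as partial checks.

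Of the 8 members at 10 CPM or more, Klf4 had the largest ratio. From library 1 to library 6 it was 67.4, 52.7, 117, 101, 158 and 71.5 CPM in VSMC1-like cells and 143, 154, 419, 306, 301 and 168 CPM in VSMC2-like cells. It was higher in VSMC2-like cells of every library, although the ranges of the subtypes over all libraries overlapped, and the median log2 ratio was 1.39 (0.93 to 1.84). In library 1, with 233 Klf4 UMIs in VSMC2-like cells, the exact Poisson intervals, which cover counting error alone, were 62.9 to 72.1 and 126 to 163 CPM. Klf2 was 129, 102, 178, 199, 447 and 208 CPM in VSMC1-like cells and 256, 230.0, 398, 356, 740.4 and 502 CPM in VSMC2-like cells. It was also higher in VSMC2-like cells of every library, with a median log2 ratio of 1.08 (0.73 to 1.27). Cebpa, below 10 CPM in both subtypes and not among the 8, had a median ratio of 1.66 (0.55 to 2.03), higher in 6 of 6 libraries, from 2 to 13 UMIs per library in VSMC2-like cells.

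Cebpb and Cebpd were higher in VSMC2-like cells by less. Their median log2 ratios were 0.57 (0.15 to 1.20) and 0.54 (0.14 to 1.31). Without the VSMC-like cells that held 3 or more fibroblast marker UMIs, neither was higher in every library, at 0.44 and 0.24, while Klf4 and Klf2 were, at 1.49 and 1.18. That filter took out 77.8% of VSMC-like cells, 79.8% of VSMC1-like and 64.6% of VSMC2-like cells. The VSMC-like cells left had a median of 5604.5 UMIs against 7199 in all, so the filter also selected shallower cells. Neither had 1 sign in every library when the members and lists were kept in the clustering (0.44 and 0.74). Cebpd also lost its common sign in cells thinned to 3000 UMIs, at 0.41, and was at -0.03 when the cells were clustered on log-normalized counts without integration. Klf15 (-0.27), Klf6 (-0.11), Klf9 (-0.02) and Cebpg (0.25) had no common sign in the 6 libraries, and Klf15 was 28.3 to 57.5 CPM in VSMC1-like and 22.9 to 43.5 CPM in VSMC2-like cells. In all, 4 of the 8 members tested were higher in every library, beside 12.6% of all genes, and 0 were lower, beside 22.1%. Leaving out any library kept these 4, while Cebpg was also higher without library 5, Klf15 lower without library 1 and Klf6 lower without library 6. Without marked doublets these 4 were again higher in every library, and Klf15 was lower in every library.

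VSMC1-like cells were then weighted to the Fos, Jun and Junb distribution of VSMC2-like cells in the same library. The shares were then closer but not equal. In library 5 the share was 1.52% in VSMC2-like and 1.41% in weighted VSMC1-like cells. Only in library 1 was it higher in weighted VSMC1-like cells, at 0.688% against 0.677%. The weighted VSMC1-like Klf4 level was 104, 80.1, 182, 147, 195 and 121 CPM, still below VSMC2-like cells in every library, and the median log2 ratio went from 1.39 to 0.79 (0.46 to 1.20). The ratio of Klf2 went from 1.08 to 0.53 (0.36 to 0.82), again with 1 sign in 6 libraries. Cebpb went to 0.15, higher in 5 of 6 libraries, and Cebpd to 0.21, higher in 4 of 6. Klf6 (-0.31, -0.41 to -0.15) and Klf15 (-0.33, -0.58 to -0.07) were lower in every library once weighted. Without the cells with fibroblast marker UMIs, Klf6 (-0.76) and Klf15 (-0.45) did not have 1 sign in the matched comparison. Klf15 also had no common sign in the log-normalized clustering (-0.15), when matched on a list of 23 dissociation genes (-0.20) and in cells thinned to 3000 UMIs (-0.0064). Thus 2 of 8 members were higher, beside 11.9% of all genes, and 2 were lower, beside 17.7%. Matching on the dissociation list in place of Fos, Jun and Junb left Klf4 higher in every library, while the Klf2 ratio was 0.12 and no longer of 1 sign.

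**Figure D2:**
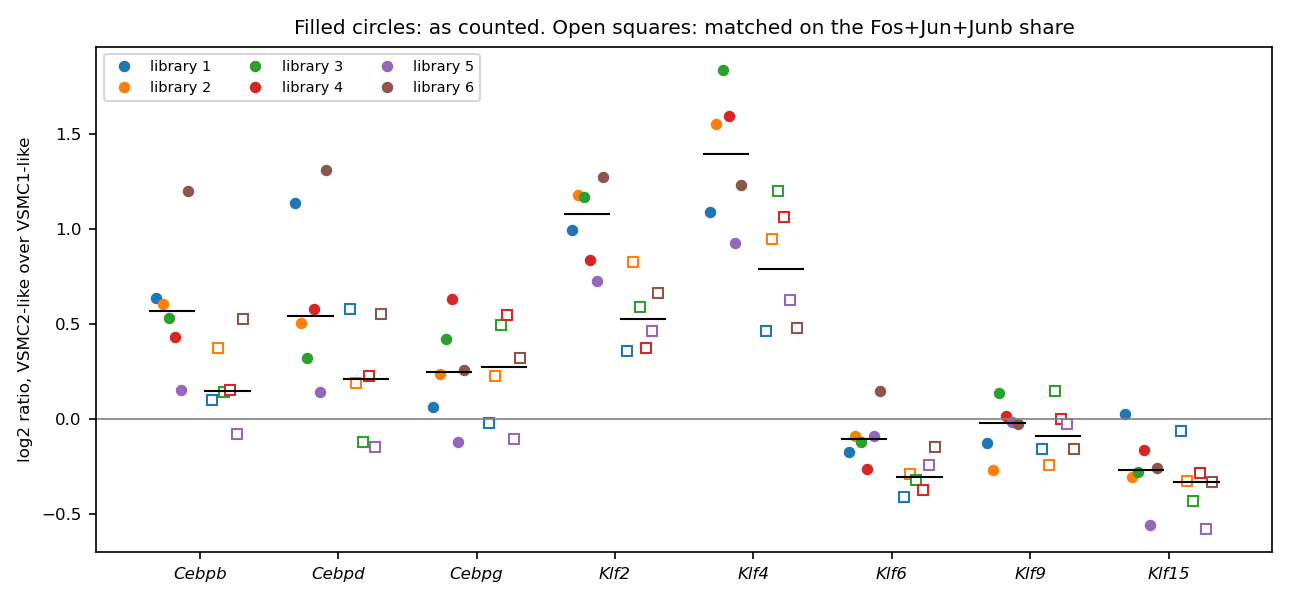
Log2 of the VSMC2-like to VSMC1-like ratio in each library for the 8 members at 10 CPM or more, as counted (filled circles) and after weighting VSMC1-like cells to the Fos, Jun and Junb share of VSMC2-like cells (open squares), with medians as bars. Klf4 and Klf2 stay above 0 in 6 libraries in both, and Cebpb and Cebpd reach below 0 after weighting.

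The other genes of both families, and genes that these factors or the same stimuli are known to act on, were read from lists. Of 11 further C/EBP, KLF and Sp genes tested, 4 were higher in VSMC2-like cells of every library and 0 were lower, beside 12.6% and 22.1% of all genes, the shares against which the lists below are also read. They were Ddit3, a C/EBP gene of the stress response (0.87), Klf10, a TGF-β early gene (0.82), Klf11 (0.58) and Klf7 (0.28). After weighting, Klf11 (0.39) and Klf7 (0.29) remained of 1 sign, beside 11.9% of all genes higher. The others were Sp3 at 0.15, Cebpz at 0.08, Sp4 at 0.03, Sp2 at 0.00, Klf3 at -0.02, Sp1 at -0.06 and Klf13 at -0.15. Of the 23 dissociation genes, 18 were higher and 0 lower in every library, with a list median of 0.93 (all genes -0.06) and 10 higher after weighting (list median 0.47). The list leaves out Fos, Jun and Junb. Gadd45b (2.06) and Ier3 (1.72) were at the top and Rhob (0.05) and Hsp90aa1 (0.02) at the bottom.

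Of 8 glucocorticoid-responsive genes tested, 3 were higher in every VSMC2-like sum and 1 was lower in every one, beside 12.6% and 22.1% of all genes. Tsc22d3, which encodes the glucocorticoid-induced leucine zipper, was at 2.15 and, weighted, at 2.11. Errfi1, a feedback inhibitor of the EGF receptor, was at 0.86, the metallothionein gene Mt2 at -0.12 and Zbtb16 at -0.52, lower in every library. Of 4 C/EBP targets tested, the chemokine genes Cxcl1 (3.44) and Ccl2 (2.48) and the cytokine signalling inhibitor Socs3 (1.63, also on the dissociation list) were higher and 0 were lower in every library, beside the same shares. Fabp4, the fatty acid carrier of fat and endothelial cells, was at -0.72. Cxcl1, Ccl2 and Socs3 were also higher in fibroblast-like than in VSMC-like cells of every library (5.03, 5.66 and 1.61), the class whose markers were raised in VSMC2-like cells. Of the 10 contractile genes, Des (-1.13) and Cnn1 (-0.37) had the lowest and Tpm2 (0.26) and Tagln (0.07) the highest ratios, with 1 higher and 4 lower in every library, beside 12.6% and 22.1% of all genes.

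Genes that Klf2 and Klf4 are known to regulate in endothelium were read in the same way. In endothelial-like over VSMC-like cells, the nitric oxide synthase Nos3 (5.47), thrombomodulin (Thbd, 2.62), endothelin (Edn1, 3.91), Vcam1 (4.02) and Sele (8.17) were all higher in every library, beside 24.9% of all genes. Nos3 and Sele were below 10 CPM in VSMC-like cells and were tested only through the endothelial-like class, which favours a higher sign. Whether Klf2 has a part in these levels was not tested. This list mixes genes that Klf2 is known to raise (Nos3, Thbd) and to lower (Edn1, Vcam1, Sele). In VSMC2-like over VSMC1-like cells 3 of them were tested: Vcam1 was higher in every library (2.08), Edn1 was at -0.71 (higher in 1 of 6) and Thbd at -0.67 (higher in 2 of 6).

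How each member moved with the immediate early genes was measured inside each class, by splitting the cells of every library into 4 bins of equal number by their Fos, Jun and Junb share. In VSMC-like cells Klf4 was 30.7, 15.2, 25.1, 24.1, 26.6 and 16.3 CPM in the lowest bin of library 1 to library 6. It was 187, 171, 475, 303, 447 and 222 CPM in the highest bin. The lowest and the highest bin did not overlap, and the medians of the 4 bins rose through 24.6, 58.7, 147 and 262 CPM. Klf2 rose through 70.2, 118, 238 and 519 CPM, Cebpd through 106, 214, 391 and 678 CPM and Cebpb through 323, 403, 700.4 and 1002 CPM.

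The median log2 ratios of the highest over the lowest bin were 3.69 for Klf4 (2.60 to 4.23), 2.80 for Klf2 (2.11 to 3.46), 2.15 for Cebpd (1.83 to 3.51) and 1.62 for Cebpb (1.35 to 2.69). Klf6 was at 0.75 (0.40 to 1.19) and Klf9 at 0.11 (0.01 to 0.33). Klf15 (0.07) and Cebpg (0.05) had no common sign. Klf15 had medians of 37.5, 36.7, 36.8 and 40.2 CPM and Cebpg of 27.9, 29.9, 29.3 and 28.2 CPM from the lowest to the highest bin. In all, 6 of 8 members were higher in the highest bin of every library, beside 8.84% of all genes, and 0 were lower, beside 23.3%. Cells of the highest bin were shallower, with a median of 6407 UMIs against 7512 in the lowest bin. VSMC2-like cells had a higher Fos, Jun and Junb share than VSMC1-like cells, with medians per cell of 0.850% and 0.266%. The subtypes were not held alike in the bins, and their part in these ratios was not tested. Of the 6 fibroblast markers tested 5 moved as well, with Dcn, a collagen-binding proteoglycan, at 1.59 and higher in every library. Without cells with 3 or more fibroblast marker UMIs, Klf4, Klf2, Cebpd and Cebpb were still higher in every library. Klf6 (0.51) and Klf9 (0.16) then lacked a common sign, with a Klf9 median no smaller than the 0.11 of all cells.

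In fibroblast-like cells the same 6 members were higher in the highest bin of every library, beside 7.2% of all genes, and 0 of 9 were lower, beside 18.9%. The ratios of Klf2 (1.35), Klf4 (1.26), Cebpd (0.87) and Cebpb (0.70) were smaller than in VSMC-like cells, while Klf9 was at 0.39 and Klf6 at 0.52. Cebpa was at 0.67 and Klf15 at 0.50, each higher in 5 of 6 libraries, and without library 6 Klf15, and without library 5 Cebpa, was higher in all that remained. Klf4 went from 392 CPM in the lowest bin to 1171 CPM in the highest. The lowest fibroblast-like bin, at 303 to 730 CPM over the libraries, lay above the highest VSMC-like bin of the same library in 5 of 6 libraries, all but library 3. The Fos, Jun and Junb bins are set within each class, so equal bins are not equal shares. Fos was 55.2 CPM in the lowest and 12880 CPM in the highest bin of VSMC-like cells. In fibroblast-like cells it was 1286 and 12782 CPM. The bins thus span a wider range of Fos in VSMC-like cells, and whether the members rise more for an equal change in share was not tested. Among the other family members, Klf10 (1.67), Ddit3 (1.11), Klf11 (0.93) and Klf13 (0.12) were higher in the highest bin of VSMC-like cells in every library. In VSMC-like cells 21 of 23 dissociation genes and 7 of 8 glucocorticoid-responsive genes were higher as well, with list medians of 2.19 and 1.69, beside 8.84% of all genes higher.

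**Figure D3:**
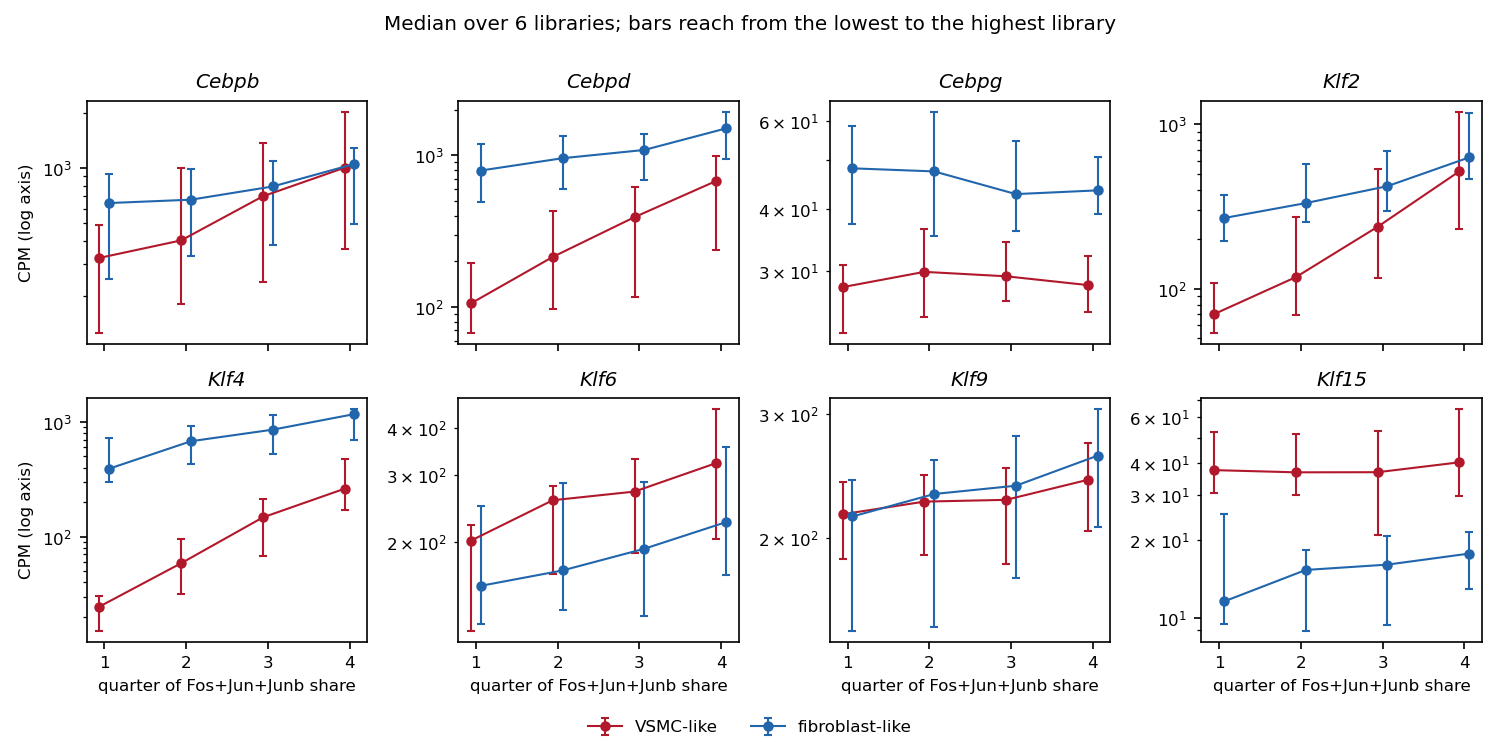
CPM (log axis) of 8 members in 4 bins of rising Fos, Jun and Junb share, in VSMC-like and fibroblast-like cells. Points are medians of 6 libraries and bars reach from the lowest to the highest library. Klf4, Klf2, Cebpd and Cebpb rise in both classes, by larger ratios in VSMC-like cells, whose bins span a wider range of Fos. Cebpg and, in VSMC-like cells, Klf15 keep similar medians.

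The same members also differed between libraries. In VSMC1-like cells the highest library had 5.79 times the Cebpb level of the lowest, 1161 CPM in library 5 against 200 CPM in library 2. The same 2 libraries were the extremes for Klf2 (4.37-fold), Cebpd (4.12-fold) and Klf4 (2.97-fold), and also for Klf15 (1.998-fold) and Klf6 (1.80-fold). Klf9 (1.27-fold) and Cebpg (1.10-fold) were lower than the median of 7633 genes, which was 1.42-fold. Of all genes 0.262% had a fold as large as that of Cebpb and 0.616% one as large as that of Klf2. Library 5 also had the highest Fos, Jun and Junb share of VSMC1-like cells, 1.11%, and library 2 the lowest, 0.328%. Weighted to 1 common distribution of that share, the folds were 4.10 for Cebpb, 2.81 for Cebpd, 2.39 for Klf2, 1.64 for Klf4 and 2.04 for Klf15. Fos, Jun and Junb themselves were then still at 1.62, 1.63 and 1.84, against a weighted median of 1.42 over all genes. The weighting thus evened these genes only in part. Without library 5 the counted folds were 3.14 for Cebpb, 2.03 for Klf2, 3.18 for Cebpd and 2.21 for Klf4, and without library 2 they were 2.80, 3.45, 3.04 and 2.33. The weighted folds also rested on library 2: without it Cebpb was at 1.90, Cebpd at 1.95, Klf2 at 1.65 and Klf4 at 1.33. Without the highest library of each they were 2.77, 2.74, 2.04 and 1.49. VSMC1-like cells were deepest in library 2, with a median of 12569 UMIs, and shallowest in library 5, with 6244. The paper states that samples were prepared on multiple days, and the day of each library is not given. Whether genotype, digestion time, preparation day or depth sets these differences was not tested and cannot be told apart here.

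In fibroblast-like cells the folds of Cebpb, Klf2, Cebpd and Klf4 were smaller and those of Klf6, Klf9 and Cebpg were larger. They were 2.72 for Cebpb, 2.20 for Klf2, 2.15 for Klf6, 2.14 for Cebpd, 2.07 for Klf4 and 1.94 for Klf15. Klf9 was at 1.56 and Cebpg at 1.36, and the median over 8116 genes was 1.45. Weighting to 1 distribution took Cebpb to 2.33 and Klf4 to 1.64. Library 2 was lowest for Cebpb, Cebpd, Klf6, Klf9 and Klf15, and library 5 or library 4 highest for all of these but Klf15, which was highest in library 6.

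**Figure D4:**
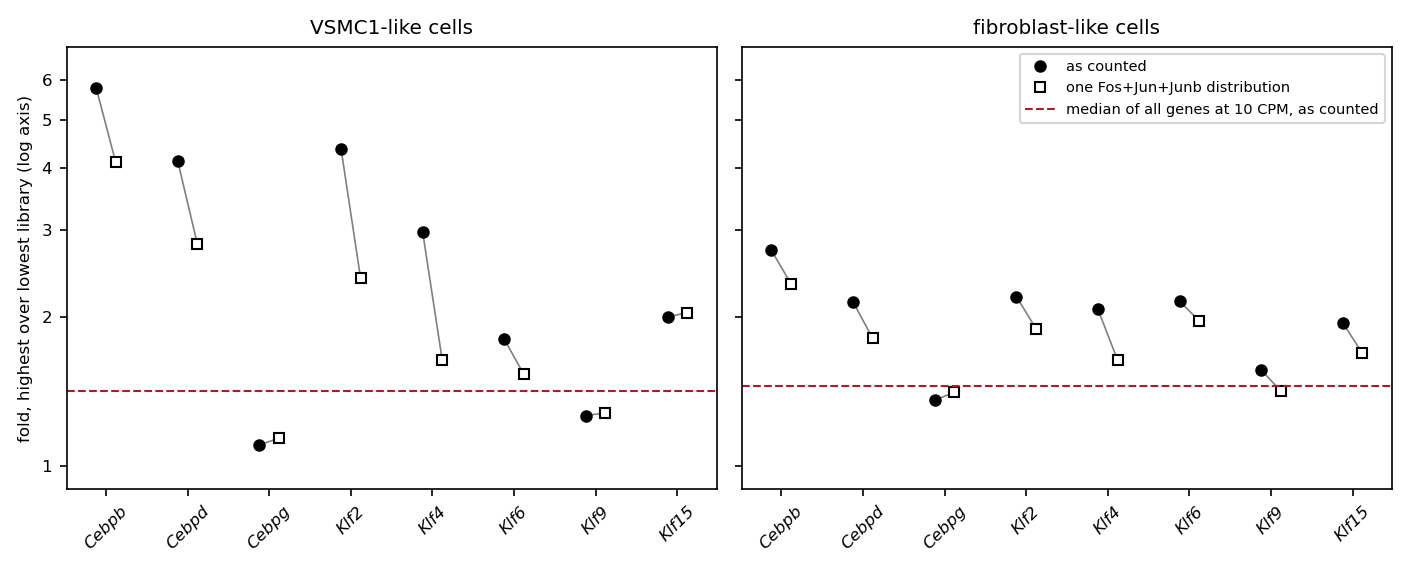
Fold of the highest over the lowest of 6 libraries (log axis) for 8 members in VSMC1-like and fibroblast-like cells, as counted (circles) and with all libraries weighted to 1 distribution of the Fos, Jun and Junb share (squares); the dashed line is the median of all genes at 10 CPM. In VSMC1-like cells Cebpb goes from 5.79 to 4.10-fold (1.90-fold without library 2), Klf4 comes down to 1.64-fold, and Klf9 and Cebpg lie below the line.

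Finer subclusters, made without the 10 genes, are described by the members' ratio to the other cells of the class. The share of all genes with 1 sign in every library was not counted for the subclusters of any class. Signs of members there are descriptions and cannot be set against such a share. In VSMC-like cells the largest subcluster, 3644 cells led by Tes and Mylk4, had low levels of the members that moved with the immediate early genes: Klf4 was at -2.08, Klf2 at -1.69, Cebpd at -0.93, Cebpb at -0.61 and Klf6 at -0.27, all lower in every library. Its Fos was at -1.20 and Junb at -1.61. A subcluster of 1109 cells led by Cfd and Car3, genes known from fat cells, also had the immediate early genes Cyr61, Nr4a1 and Atf3 among its 10 leading genes. It had Klf4 at 1.54, Cebpd at 0.85, Cebpb at 0.74 and Klf6 at 0.56, all higher in every library. A subcluster of 1381 cells led by Olfr558 and Gja4 had Klf4 at 0.91, Klf2 at 0.82 and Cebpb at 0.49 in 6 of 6 libraries, while Cebpd had no common sign.

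The members did not all have the same sign in other subclusters. The 1411 cells led by Adcy1 and Mylk4, whose median of 4229 UMIs was the lowest of the VSMC-like subclusters, had Klf4 at -0.46 and Klf6 at 0.33 and Klf9 at 0.34, each in every library. The subcluster of 276 cells led by Prrx2 and Rgs5, with 3 of 7 pericyte markers raised, had Cebpd at -1.33 and Klf9 at 0.38 in every library, and Klf4 without a common sign. The subcluster of 748 cells led by Lgals3 and Fxyd5 had Klf2 at 0.75 and Klf15 at -0.70 in every library, beside lower Fos (-0.63). Of the 7 fibroblast markers 4 were raised there and 4.55% of its cells were marked as doublets, and their part in these values was not tested. Fibroblast-like cells had higher Klf2 and lower Klf15 than VSMC-like cells. A subcluster of 474 cells led by Cygb and Clec3b had Klf4 at 1.32, Cebpd at 1.07 and Cebpg at 0.45, all higher in every library. All 7 fibroblast markers were raised there and 31.0% of its cells were marked as doublets, and the part of fibroblast transcripts in its values was not tested.

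In fibroblast-like cells the largest subcluster, 4737 cells led by Ly6c1 and Has1, had higher Cebpa (0.64), Klf4 (0.61), Cebpd (0.37) and Klf6 (0.35) in every library. The 4385 cells led by Pex5l and Hhip had lower Klf2 (-0.89) and Cebpa (-0.52) and higher Klf9 (0.25). In 1324 cells led by Cytl1 and Spp1, with the cartilage genes Chad, Comp and Col2a1 and the endothelial marker Pecam1 among their 10 leading genes, Klf2 was at 1.03, from 0.16 to 1.19, and Klf4 at 0.31, while Klf15 was at -0.84 and Cebpd at -0.34. The 1244 cells led by Coch and Cd74 had the opposite sign for Klf15, at 0.71, with Cebpd at -0.67, Klf4 at -0.58 and Klf9 at -0.51. Fos was slightly higher there (0.14), in every library. The 865 cells led by Igfbp3 had higher Cebpb (0.49) and lower Klf4 (-0.53). The 816 cells led by Mmp3 had lower Klf2 (-0.65) and Cebpg (-0.35). There 4 of 7 VSMC markers were raised, against 0 in the other 5 fibroblast-like subclusters, and 3.19% of cells were marked as doublets. Both genes were also lower in VSMC-like than in fibroblast-like cells, and the part of VSMC transcripts in these values was not tested.

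**Figure D5:**
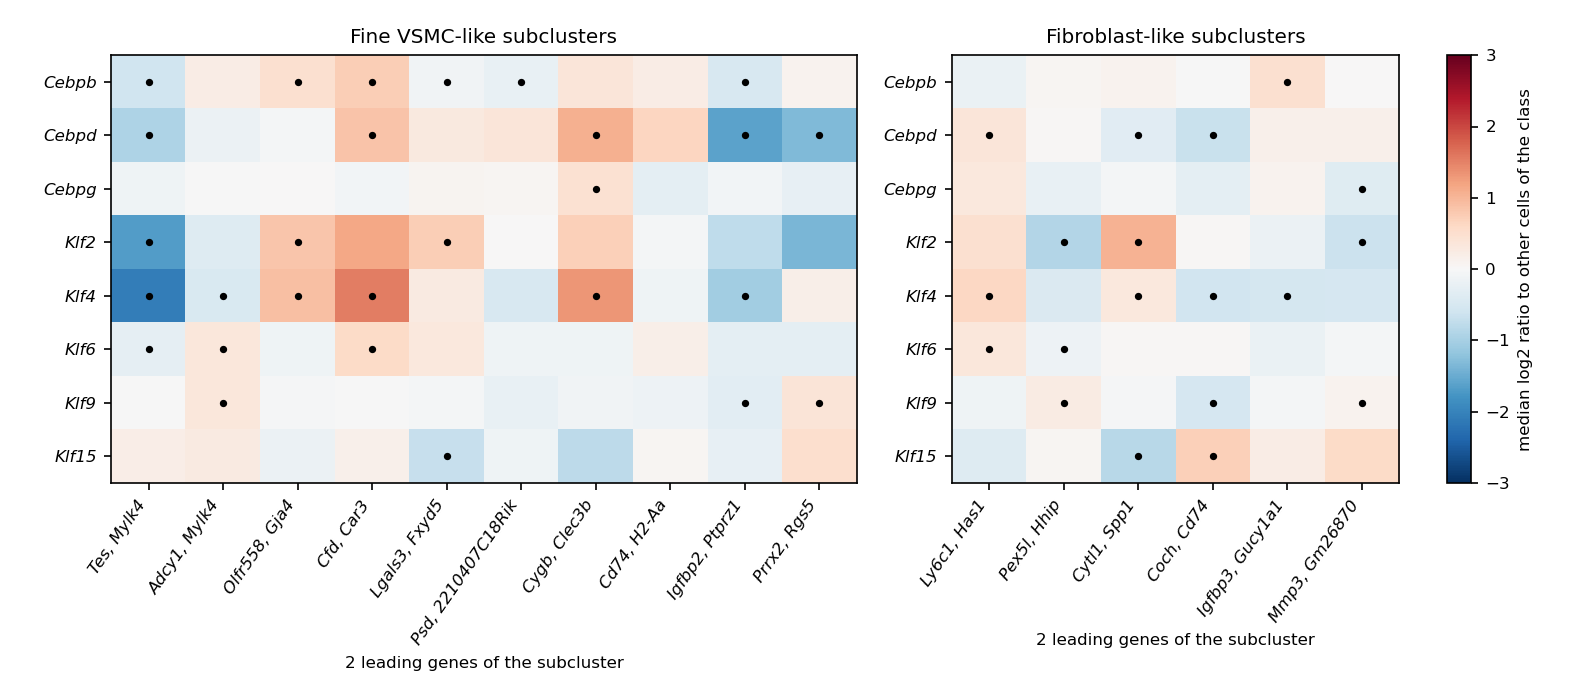
Median log2 ratio of 8 members in each subcluster to the other cells of the same class, over the libraries with at least 10 cells of it; subclusters are named by their 2 leading genes. A dot marks a ratio of 1 sign in all 6 libraries; the lowest value is Klf4 in the Tes and Mylk4 subcluster, at -2.08.

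Leukocyte-like cells fell into subclusters in which the members differed widely. In 162 macrophage-like cells led by Lyve1 and Folr2, Klf4 was at 1275 CPM (634 to 1683) and Cebpa at 140 (82.9 to 227), and Klf4, Klf2, Cebpa and Klf6 were higher than in the other leukocyte-like cells in 5 of 5 libraries with at least 10 such cells. The 204 other macrophage-like cells, led by Ankrd1 and Mmp12, had Klf4 at 499.5 CPM (380 to 749). In 84 cells led by Camp and Chil3 and with 6 T cell markers raised, Cebpa had 0 UMIs and Klf2 was at 83.2 CPM (52.5 to 120). The 40 neutrophil-like cells reached 10 cells in 1 library, where they had 2667 CPM of Cebpb and 152 CPM of Klf4. In 37 dendritic-like cells Cebpb was at 10.4 and 118 CPM in the 2 libraries with at least 10 of them. The 21 T cell-like cells, compared in 1 library, had Klf4 at 19.4 CPM and Cebpa at 0.

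Likeness between genes was measured as Pearson's r of log2(CPM + 1) over 30 points, 5 cell groups in 6 libraries, among 10552 genes. The points share libraries and depth, and r is a description here. Klf4 was most like Klf10 (0.958), Myc (0.956) and Sh3bp5 (0.949), and Klf2 like Pim3 (0.936), Midn (0.930) and Txnip (0.915). Klf6 was most like Btg1 (0.915), D1Ertd622e (0.896) and Dgkz (0.896). Klf9 was most like Parva (0.962), Nfia (0.953) and Smim10l1 (0.948), and Klf15 like Shisa4 (0.933), Col4a6 (0.930) and Nox4 (0.927). Cebpa, the leukocyte member, was most like Cotl1 (0.971), Cxcr4 (0.954) and Ifi202b (0.946). Cebpb was most like the metallothionein gene Mt1 (0.865), Ifrd1 (0.786) and 4930579G24Rik (0.767). Cebpd was most like Uap1 (0.833), Cp (0.831) and the cytokine gene Il6 (0.831), and Cebpg like the chaperone gene Dnaja1 (0.899), Rnf125 (0.876) and Pgm1 (0.873). Klf5, at low counts, reached 0.695 with Fmod, 0.693 with Ptgir and 0.682 with Aldh1a3. Between members, r was highest for Klf2 and Klf4 (0.818) and lowest for Cebpg and Klf15 (-0.859).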

How the data were processed

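The authors deposited 1 matrix of raw UMI counts, made by the 10x 3' v3 platform and Cell Ranger, aligned to mm10 and aggregated by the authors. The submitters' notes name version 6 and the matrix header version 4.0.0. Whether aggregation equalized depth, and whether counting used strand, is not given in the sources used here. The study's limits on cells were used: 1000 to 5000 detected genes, UMI totals between 1500 and 25000, and a mitochondrial share below 20%.

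Libraries were normalized with SCTransform on 3000 variable genes and integrated by RPCA over 30 components in Seurat 5.3.0 (sctransform 0.4.2, R 4.3.3), clustered at resolution 0.25 and named where at least 3 markers were raised. The 10 members and all gene lists were left out of the variable genes, 65 of them for all cells and 83 for VSMC-like cells. A resolution of 0.05 gave exactly 2 VSMC-like subclusters of at least 5%, and 17 cardiomyocyte-like cells were set aside. Subclusters led by Cd74 (379 cells) and Rgs5 (265 cells) belong to neither subtype. Doublets were marked with scanpy 1.11.5, by the top 5% of scores in the libraries where the caller marked under 0.5%, and were kept in the main values.

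For CPM, the UMIs of each gene were summed over the cells of a group in 1 library and scaled by the group's total. Log2 ratios used a prior of 0.5 UMI, genes needed 10 CPM in a group compared, and a class needed 10 cells in a library. Medians of CPM and of ratios were taken separately. Folds between libraries were taken after adding 1 CPM. Matching weighted cells over 20 bins of the Fos, Jun and Junb share. Intervals are 95% exact intervals. There is no p-value: genotypes could not be compared, and the ratios, all taken within a library, are descriptions. Sums do not tell fewer expressing cells from less RNA per cell. The scripts were tested on simulated counts. Coordinates are from GENCODE M21 (mm10), 1-based.

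Named genes are the 10 members, the other C/EBP, KLF and Sp genes at 10 CPM, the 2 largest and 2 smallest ratios of each list, the 3 genes most like each member, leading genes of subclusters, and genes on which a result turns. Members and lists were chosen with earlier results of these data known. The weighting of libraries to 1 distribution, the subclusters finer than the subtypes, and the genes named from other comparisons were chosen after values were seen.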

Additional observations from a re-analysis of the deposited data

How the results depend on the processing

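Alternatives were leaving out each library, doublets, cells with fibroblast transcripts or shared barcodes, other clusterings, resolutions and matchings, thinned cells, a prior of 2 UMIs, a minimum of 50 CPM and 1 sum over libraries; the finer resolution and the shared barcodes were added after seeing the data. In VSMC2-like over VSMC1-like cells, members higher in every library numbered 2 without cells with fibroblast transcripts and 2 with members and lists kept in the clustering, in place of 4. Members lower numbered 1 without marked doublets, 1 with lists kept, 1 at the next finer resolution and 0 to 1 without each library, in place of 0. Cebpd was at -0.0337 in the log-normalized clustering without integration, in place of 0.54. In the matched comparison, members higher numbered 1 when matched on the dissociation list, in place of 2. Members lower numbered 1 in the log-normalized clustering, 0 without cells with fibroblast transcripts, 1 when matched on the dissociation list, 1 in cells thinned to 3000 UMIs and 1 at 50 CPM, in place of 2. The minimum of 50 CPM tests fewer members: in fibroblast-like over VSMC-like cells it gave 3 higher and 1 lower, matched 2 higher and 1 lower, and it gave 1 lower in endothelial-like and in leukocyte-like cells, plain and matched. Endothelial-like cells had 3 members higher when matched on the dissociation list and 1 lower under nearest neighbour matching. Otherwise the causes were not tested. The other counts stayed within 1.5 times the reported ones, and 1135 of 1163 values of single members moved by less than the spread between libraries. Classes, subtypes and bins were compared within each library. Between genotypes, no paired analysis was possible because the libraries are not paired with the labelled mice. Depth limits Klf5, Cebpa outside leukocyte-like and fibroblast-like cells, and Klf15 in endothelial-like and leukocyte-like cells.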

Other observations

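The subcluster of VSMC-like cells led by Cd74 and H2-Aa, antigen presentation genes, held 398 cells at the finer resolution, in 5 libraries with at least 10 of them. Cebpb was at 0.21 (0.04 to 0.45) and Cebpd at 0.65 (0.33 to 0.93) against the other VSMC-like cells, both higher in 5 of 5 libraries. In the 325 cells led by Igfbp2 and Ptprz1 the median Cebpd level was 89.9 CPM (46.8 to 173), at a log2 ratio of -1.61, and Fos was at -1.08, both lower in every library.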
